A study of Mus musculus with 6 samples.

Results

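Described here are 35 mouse genes of glycolysis and of the transcriptional response to low oxygen, 15 of them glycolytic enzymes and 20 other hypoxia genes. Their messenger RNA was read from 6 Agilent whole-genome arrays hybridised with Cy3 label in 1 colour. Each gene was found by its name or synonym among the probes (Ero1l through its later name Ero1a), and the probe with the highest mean level over the 6 arrays stood for it. All 35 were found among the 29603 genes of the array. Of these, 34 were well above background on every array, and Mxi1 was not on the arrays of both wild-type cocultures.

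The study asked how mast cells and fibroblasts act on each other while mast cells mature. Mast cells were raised from bone marrow of Pla2g3+/+ mice or of mice labelled Pla2g3-/-, in medium with 10 ng/ml interleukin-3. Pla2g3 encodes a secreted phospholipase A2. Of the 6 groups, 2 were such mast cells without fibroblasts, Pla2g3+/+ and labelled Pla2g3-/-. A pair of groups held the same genotypes after 4 days on a layer of wild-type Swiss 3T3 cells, an established mouse fibroblast line. The other two were wild-type mast cells after 4 days on Lpar1+/+ or on Lpar1-/- Swiss 3T3 cells. Lpar1 encodes a receptor for lysophosphatidic acid, and the Lpar1-/- fibroblasts were made with Cas9 and passed through single-cell cloning, so they may be 1 clone. All 4 cocultures received 100 ng/ml stem cell factor. Whether the cultures without fibroblasts received it, and the mouse strain and age, are not given in the sources used here. Mast cells were taken from the cocultures either as nonadherent cells or with beads against CD117, and which route gave the arrayed RNA is not given either. No oxygen treatment is named in the labels. Each array carried RNA pooled from 3 samples, and there was 1 array per group, so no value below has a replicate check and no p-value is given.

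Cells sense oxygen through prolyl hydroxylases of the EGLN family, which mark the alpha subunits of the hypoxia-inducible factors (HIF) for destruction by the VHL ubiquitin ligase. In low oxygen the alpha subunits persist, pair with ARNT and bind promoters and enhancers that hold the core letters ACGTG. The targets include glucose transporters, nearly every enzyme of glycolysis, lactate export, and brakes on the entry of pyruvate into mitochondria. They also include secreted factors such as VEGF and enzymes that modify collagen. Mast cells and fibroblasts both use this programme, and growth factor signalling can also raise it.

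Promoters are shown for 6 members that the results below turn on. Pgk1, P4ha2, Pgam1 and Adm were at least 2-fold lower on Lpar1-/- fibroblasts, Ankrd37 was higher in both altered cocultures, and Ldha held the most core motifs in the window shown. Ldha has another start, whose window held 0 matches, and the window with the most matches was chosen for printing. The sequences are from RefSeq on GRCm38.p6, cover the 250 bases before each gene's start, and run 5′ to 3′ on the gene's strand. Capitals mark the core motif ACGTG on either strand, so CACGT is the same motif read on the other strand. The windows are chrX:106186850-106187099 (+ strand), chr11:54100674-54100923 (+ strand), chr19:41911621-41911870 (+ strand), chr7:110627407-110627656 (+ strand), chr8:45999851-46000100 (- strand) and chr7:46845554-46845803 (+ strand).
Pgk1: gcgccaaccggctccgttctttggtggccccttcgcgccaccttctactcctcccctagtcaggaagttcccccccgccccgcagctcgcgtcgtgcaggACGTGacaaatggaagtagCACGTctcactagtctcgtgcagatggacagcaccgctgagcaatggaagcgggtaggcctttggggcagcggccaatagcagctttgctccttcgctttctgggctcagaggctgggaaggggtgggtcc
P4ha2: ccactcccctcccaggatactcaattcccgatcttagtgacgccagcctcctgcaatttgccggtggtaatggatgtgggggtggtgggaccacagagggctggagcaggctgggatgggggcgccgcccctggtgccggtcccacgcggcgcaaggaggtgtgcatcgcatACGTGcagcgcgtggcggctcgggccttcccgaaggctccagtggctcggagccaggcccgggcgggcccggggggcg
Pgam1: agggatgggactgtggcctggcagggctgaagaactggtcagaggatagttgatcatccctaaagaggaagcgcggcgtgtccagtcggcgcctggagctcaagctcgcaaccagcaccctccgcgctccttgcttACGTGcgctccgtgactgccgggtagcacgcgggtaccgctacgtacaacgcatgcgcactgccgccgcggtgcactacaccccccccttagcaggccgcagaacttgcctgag
Adm: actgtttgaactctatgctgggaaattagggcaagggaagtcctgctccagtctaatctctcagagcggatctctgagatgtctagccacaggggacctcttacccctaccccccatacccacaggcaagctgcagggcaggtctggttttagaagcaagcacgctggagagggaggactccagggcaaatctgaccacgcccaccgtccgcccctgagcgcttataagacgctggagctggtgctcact
Ankrd37: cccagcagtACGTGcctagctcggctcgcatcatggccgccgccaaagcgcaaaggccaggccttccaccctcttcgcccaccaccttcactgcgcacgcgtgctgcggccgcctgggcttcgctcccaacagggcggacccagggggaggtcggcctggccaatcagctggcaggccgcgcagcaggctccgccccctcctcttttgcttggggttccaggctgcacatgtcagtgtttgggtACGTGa
Ldha: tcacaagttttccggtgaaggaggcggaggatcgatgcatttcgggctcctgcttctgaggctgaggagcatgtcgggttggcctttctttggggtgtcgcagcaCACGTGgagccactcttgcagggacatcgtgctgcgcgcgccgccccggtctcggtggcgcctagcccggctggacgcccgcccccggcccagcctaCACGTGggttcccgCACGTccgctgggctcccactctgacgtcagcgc
The motif occurred 2 times in the Pgk1 and Ankrd37 windows, 1 time in those of P4ha2 and Pgam1, and 0 times in that of Adm. Ldha had 5 matches in the window shown, where each CACGTG counts on both strands, and 0 in its other window. Windows of 300 bases, which add 50 bases after the start, were held for 33 of the 35 members and not for Slc2a3 and Ndrg1. Of the members, 23 of 33 (69.7%) had at least 1 match in any of their windows, against 21.8% of the 27025 genes in the table. By window the share was 54% of 50 against 19.6% of 32851. Glycolytic enzymes had a match in 9 of 15 genes (60%), and the other hypoxia genes in 14 of 18 (77.8%). CACGTG, which contains the core motif and is also the E-box, was in 8% of the members' windows and in 7.15% of all windows. Adm, which had no match in its window, and Pgk1, which had 2, were both lower in the altered cocultures. A match is a description of letters and not of binding.

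Levels below are log2 of the processed spot intensity relative to the 75th percentile of the same array, which is 0 on this scale. They are compared between arrays for 1 probe and not between genes. A member was counted as higher or lower when 2 arrays differed at least 2-fold, a log2 difference of 1. The scanner's error model gave a spot error of 0.20 on the log2 scale for the median member difference (range 0.20 to 0.85 over members and comparisons). This median is set by the model's floor of 10% error per spot and is not an estimate from these spots. The model does not include variation between cultures. As a further measure of scatter, the array with Lpar1+/+ fibroblasts was set against the Pla2g3+/+ coculture, since both hold, by their labels, wild-type mast cells on wild-type fibroblasts. In that pair 0 of the 34 members measured differed at least 2-fold, against 0.97% of all genes (0.803% higher and 0.166% lower). The standard deviation of the member differences was 0.12, and the largest was 0.28, for Adm. All cocultures shared 1 slide and the cells alone the other, so effects of coculture and of slide cannot be told apart. If the cells alone received no stem cell factor, its effect cannot be told apart from these either. Both comparisons between cocultures lay within 1 slide. In mixed cultures, fewer cells of a type and less RNA per cell cannot be told apart.

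Several measured facts bear on all comparisons. Pla2g3 itself went against its label, with a signal 113-fold higher under the label Pla2g3-/- than under Pla2g3+/+ without fibroblasts and 44.4-fold higher in coculture. The sources used here do not say which part of the gene was removed, so the probe may lie outside it and would then check nothing. If the labels were exchanged, every label difference below would change sign. The wild-type pair would then set wild-type against Pla2g3-/- mast cells. The Pla2g3-/- genotype is therefore called the array labelled Pla2g3-/-, and Pla2g3+/+ is likewise taken from the label. Of 24 fibroblast markers, 22 or 23 were well above background in each coculture and 13 on each array without fibroblasts, where Col3a1, Dcn, Pdgfra and Postn were not. Their summed linear level was 0.923 to 1.35 without fibroblasts, 40.3 and 40.8 in the wild-type cocultures, 19.2 in the coculture labelled Pla2g3-/- and 45.0 on Lpar1-/- fibroblasts. The sum follows the brightest markers: on Lpar1-/- against Lpar1+/+ fibroblasts 14 of 23 markers were below 0, with 7 at least 2-fold higher, 3 lower and a median of -0.25. With the label in coculture 12 of 22 were at least 2-fold lower (median -1.18). Of 13 mast cell markers, 12 or 13 were well above background on each array, with summed levels of 440 to 636. After coculture 7 of the 13 were at least 2-fold higher in Pla2g3+/+ and 6 in labelled cells. In each altered coculture 6 of 13 were at least 2-fold lower than in its partner and 0 higher, with medians of -0.39 for the label and -0.53 for Lpar1-/- fibroblasts. Neutrophil and eosinophil markers (15 genes) summed to 43.1 in Pla2g3+/+ mast cells without fibroblasts and to 2.31 to 4.95 elsewhere, except for 14.1 on Lpar1-/- fibroblasts, where 10 of 13 were at least 2-fold higher than on Lpar1+/+ fibroblasts (median 1.72). Macrophage markers (10 genes) summed to 10.4 and 10.1 in the wild-type cocultures and to 2.06 to 3.40 on the other arrays. These marker levels differed in the same comparisons as the members, and their part in the members' differences was not tested.

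The signal along transcripts, often read as a sign of RNA quality, also differed between the groups. For 2511 transcripts with probes at least 300 bases apart, the probe nearest the 5′ end was compared with the one nearest the 3′ end. In the coculture labelled Pla2g3-/- against Pla2g3+/+, the 5′ probe differed from the 3′ probe by a median of -0.14 and was the lower in 64.0% of transcripts. On Lpar1-/- against Lpar1+/+ fibroblasts the median was -0.16, with 65.9% lower. In the wild-type pair it was under 0.01 in size, with 50.5% lower, and between the arrays without fibroblasts it was 0.03, with 39.5% lower. Both altered cocultures thus had relatively less signal toward the 5′ end than their wild-type partners. Among members this was large for Gapdh and Ldha, described with their probes below. Its part in the differences of the 20 members with 1 probe was not tested.

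Coculture of Pla2g3+/+ mast cells with fibroblasts left most members within 2-fold of their level in the same cells alone. Eno2, Adm, Ndrg1, P4ha2 and Slc2a3 were higher, and Aldoc and Bnip3 were lower. These 7 of 35 members are a share close to that of all genes, of which 20.6% differed at least 2-fold (13% higher and 7.52% lower). Among the genes past 2-fold 63.4% were higher, and 48.9% after quantile normalization. By list, 1 glycolytic enzyme was higher and 1 lower, and 4 other hypoxia genes were higher and 1 lower. The medians were -0.03 for the glycolytic enzymes, -0.06 for the other hypoxia genes and 0.13 for all genes.

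Without fibroblasts, the cells labelled Pla2g3-/- differed from Pla2g3+/+ cells at least 2-fold in 0 members, against 2% of all genes (0.423% higher and 1.58% lower). The largest difference was that of Egln3, at -0.97 (-0.67 by its dimmer probe). In coculture the label went with 3 members higher and 9 lower, against 9.1% and 10.4% of all genes. The lower members were Pdk1, Slc2a3, Adm, Egln3, Hk2, Ndrg1, Vegfa, P4ha2 and Pgk1, and the higher ones were P4ha1, Ankrd37 and Mxi1. Thus 12 of 35 members passed 2-fold where 19.5% of all genes did. The median was -0.29 for the glycolytic enzymes, -0.64 for the other hypoxia genes and -0.08 for all genes. Beyond the largest member difference of the wild-type pair (0.28), 21 members were lower and 4 higher, against 36% and 28.4% of all genes.

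Coculture of the cells labelled Pla2g3-/- against the same label alone, which shares an array with both comparisons just given, had 5 members higher and 7 lower, against 11.4% and 7.3% of all genes and 18.7% either way. Here 4 of the 7 lower members were glycolytic enzymes (Aldoc, Pgk1, Hk2 and Tpi1), and the others were Vegfa, Pdk1 and Bnip3. Eno2, Adm, Ndrg1, Mxi1 and Pfkfb3 were higher, of which Adm (0.62) and Mxi1 (0.34) fell short of 2-fold with normexp. Among all genes past 2-fold 61.0% were higher, and 50.3% after quantile normalization. Subtracting one coculture effect from the other gave a difference of at least 2-fold in 12 members, 3 positive and 9 negative, against 20.2% of all genes (9.74% positive and 10.5% negative). It is built from the same 4 arrays and is no separate evidence.

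Wild-type mast cells on Lpar1-/- fibroblasts had 2 members higher and 9 lower than on Lpar1+/+ fibroblasts, against 11.3% and 8.83% of all genes and 20.1% either way. Adm, Eno2, Slc2a3, Pdk1, P4ha2, Ndrg1, Pgk1, Pgam1 and Tpi1 were lower, and Mxi1 and Ankrd37 were higher. Glycolytic enzymes made up 4 of the 9 lower members. The medians were -0.55 for the glycolytic enzymes, -0.66 for the other hypoxia genes and -0.05 for all genes. Beyond 0.28, 22 members were lower and 3 higher, against 33.9% and 31.5% of all genes. Lpar1 was deleted in the fibroblasts and not in the mast cells, and its probe, at -4.14 on Lpar1+/+ and -3.89 on Lpar1-/- fibroblasts, does not check the label, since it was brighter (-2.84) in mast cells alone.

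**Figure D1:**
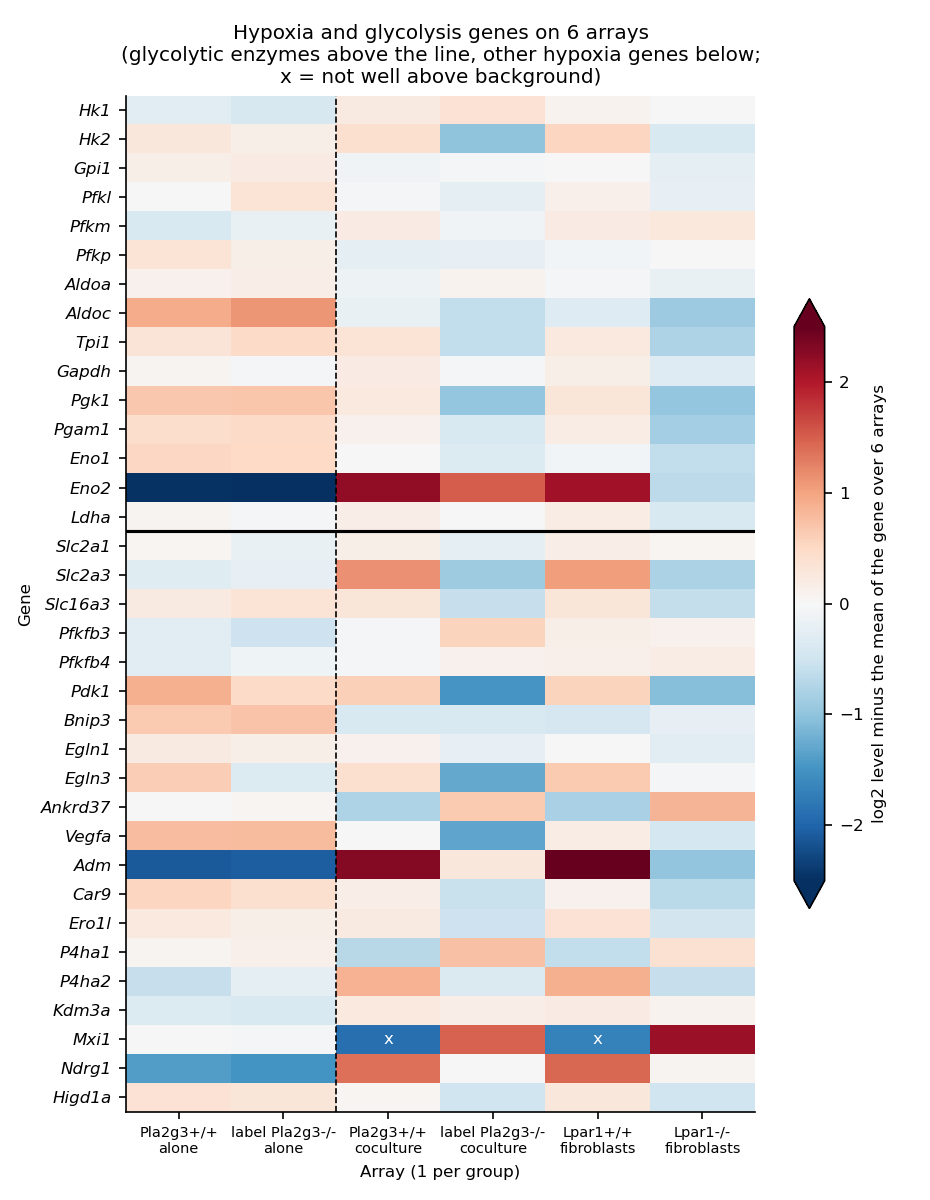
Each row is a member and each column 1 array, with colour for the log2 level minus the mean of that gene over the 6 arrays, and x marks an array where the gene was not well above background (Mxi1 on both wild-type cocultures). Both wild-type cocultures look alike, while the cocultures labelled Pla2g3-/- and with Lpar1-/- fibroblasts are lower for Pgk1, Tpi1, Slc2a3, Pdk1, P4ha2 and Ndrg1 and higher for Ankrd37 and P4ha1.

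**Figure D2:**
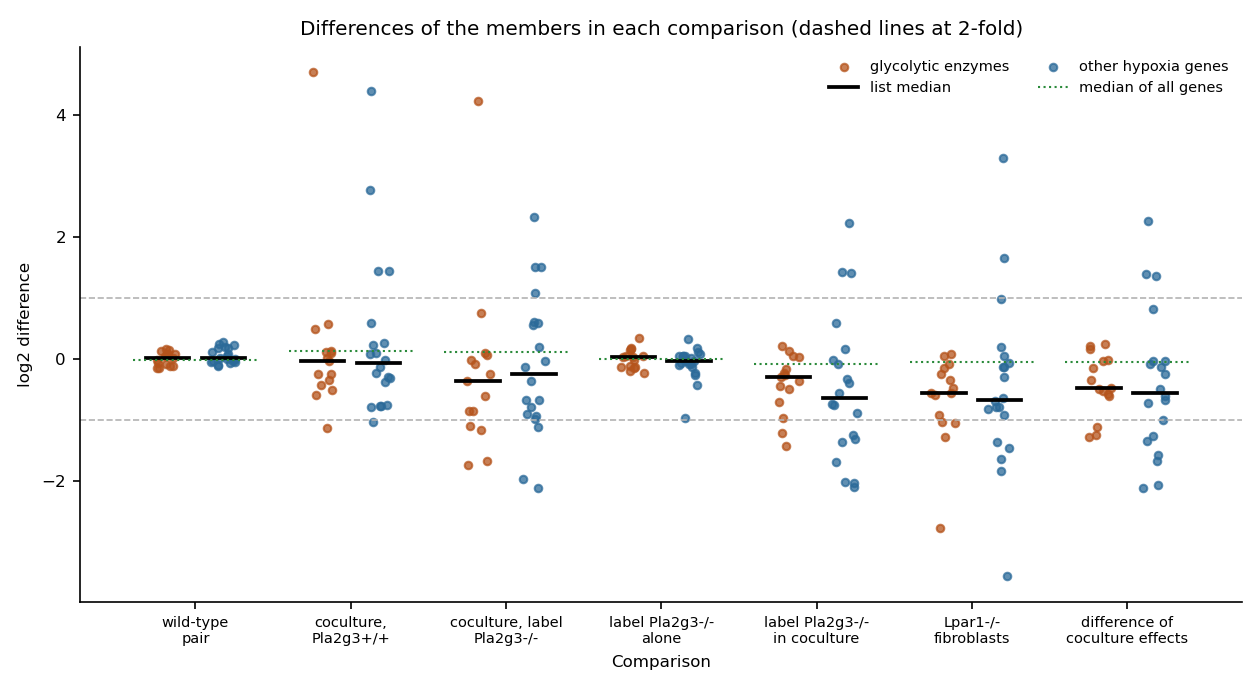
Each point is the log2 difference of 1 member in 1 comparison, with black bars for the median of the 15 glycolytic enzymes and of the 20 other hypoxia genes, green dotted lines for the median of all genes and dashed lines at 2-fold; points of Mxi1 in comparisons with a wild-type coculture are bounds, and that gene has no point in the wild-type pair. The members lie within 0.28 of 0 in the wild-type pair, and both lists lie below the median of all genes in the comparisons between cocultures, with medians of -0.29 and -0.64 for the label and -0.55 and -0.66 for Lpar1-/- fibroblasts.

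Glucose enters cells through facilitated transporters. Slc2a3 encodes the high-affinity transporter GLUT3 (probe on mm9 chromosome 6, 122678075 to 122678134). It read 2.97 in Pla2g3+/+ and 3.06 in labelled Pla2g3-/- cells without fibroblasts, 4.41 and 2.39 in the cocultures of these cells, and 4.31 and 2.48 on Lpar1+/+ and Lpar1-/- fibroblasts. Both wild-type cocultures stood above all other arrays, and the altered cocultures stood below the arrays without fibroblasts. The gene was 2.71-fold higher after coculture of Pla2g3+/+ cells, 4.07-fold lower with the label in coculture and 3.57-fold lower on Lpar1-/- fibroblasts. Slc2a1, which encodes the basal transporter GLUT1, read 4.00 and 3.75 without fibroblasts, 4.10 and 3.72 in the cocultures of the same genotypes, and 4.11 and 3.99 on Lpar1+/+ and Lpar1-/- fibroblasts. Its values lay close together on all arrays, with differences of -0.38 for the label in coculture and -0.12 for Lpar1-/- fibroblasts. Slc16a3, the lactate exporter MCT4, was just short of 2-fold lower in both, at -0.88 and -0.91, and 0.09 in coculture of Pla2g3+/+ cells.

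The upper steps of glycolysis trap glucose as a phosphate and split it. Hk2, the inducible hexokinase bound to mitochondria, read 0.93 and 0.78 without fibroblasts, 1.04 and -0.37 in the cocultures of Pla2g3+/+ and labelled cells, and 1.18 and 0.26 on Lpar1+/+ and Lpar1-/- fibroblasts. Both altered cocultures were lower than every other array. It was 2.66-fold lower with the label in coculture, and 1.89-fold lower on Lpar1-/- fibroblasts, which is within 2-fold. Aldoc, an aldolase, was lower in every coculture. It read 4.88 and 5.04 without fibroblasts, 3.76 and 3.32 in the cocultures of Pla2g3+/+ and labelled cells, and 3.61 and 3.03 on Lpar1+/+ and Lpar1-/- fibroblasts. It was 2.17-fold lower after coculture of Pla2g3+/+ cells and 3.31-fold lower after coculture of labelled cells. The other upper enzymes (Hk1, Gpi1, Pfkl, Pfkm, Pfkp and Aldoa) stayed within 2-fold in every comparison. Aldoa, the main aldolase of most tissues, read between 6.86 and 7.21 on the 6 arrays. Of the 8 upper enzymes, 1 passed 2-fold for the label in coculture (median -0.10) and 0 for Lpar1-/- fibroblasts (median -0.18).

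The lower steps yield ATP and pyruvate. All 7 lower enzymes were below 0 in both comparisons between cocultures, with medians of -0.49 for the label and -1.02 for Lpar1-/- fibroblasts. Pgk1, phosphoglycerate kinase and a classic HIF target (probe on mm9 chromosome X, 103398640 to 103398699), read 5.38 and 5.41 without fibroblasts, 4.95 and 3.75 in the cocultures of Pla2g3+/+ and labelled cells, and 5.01 and 3.75 on Lpar1+/+ and Lpar1-/- fibroblasts. The altered cocultures were the lowest arrays by over 1 log2 unit. Pgk1 was 2.30-fold lower with the label in coculture and 2.41-fold lower on Lpar1-/- fibroblasts. Tpi1, triosephosphate isomerase, read 4.79 and 4.94 without fibroblasts, 4.81 and 3.85 in the cocultures, and 4.71 and 3.69 on Lpar1+/+ and Lpar1-/- fibroblasts. Here too the altered cocultures were lowest, at differences of -0.96 for the label and -1.02 for Lpar1-/- fibroblasts, on either side of the 2-fold limit, and -0.81 on Lpar1-/- fibroblasts after quantile normalization. Pgam1, phosphoglycerate mutase, read 5.52 and 5.55 without fibroblasts, 5.18 and 4.70 in the cocultures, and 5.27 and 4.23 on Lpar1+/+ and Lpar1-/- fibroblasts. It was 2.05-fold lower on Lpar1-/- fibroblasts, and the difference was -0.78 after quantile normalization. With the label the difference was -0.49.

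Eno2, the enolase of neurons that other cells can also induce (probe on mm9 chromosome 6, 124710388 to 124710447), set coculture apart most widely among the members. It read -4.00 and -4.22 without fibroblasts, 0.71 and 0.00 in the cocultures of Pla2g3+/+ and labelled cells, and 0.59 and -2.18 on Lpar1+/+ and Lpar1-/- fibroblasts. All cocultures were higher than the cells alone, and the array with Lpar1-/- fibroblasts was the lowest of the cocultures. Eno2 was 26.0-fold higher after coculture of Pla2g3+/+ cells and 18.7-fold higher after coculture of labelled cells. It was 6.81-fold lower on Lpar1-/- than on Lpar1+/+ fibroblasts, whereas the label differed by -0.70. With normexp background correction the coculture differences were 3.74 and 3.20 on the log2 scale, in place of 4.70 and 4.22. Fibroblast markers were also higher in every coculture, and their part in the level of Eno2 was not tested. Eno1, the common enolase, ranged from 4.69 to 5.82, with its lowest value on Lpar1-/- fibroblasts.

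Gapdh, the dehydrogenase often used as a loading reference, read 6.80 and 6.69 without fibroblasts, 6.93 and 6.67 in the cocultures of Pla2g3+/+ and labelled cells, and 6.86 and 6.40 on Lpar1+/+ and Lpar1-/- fibroblasts by its brightest probe. Ldha, which turns pyruvate into lactate, read 6.54 and 6.42, 6.64 and 6.49, and 6.66 and 6.10 in the same order. Both were within 2-fold by these probes, at -0.26 and -0.15 for the label in coculture and -0.46 and -0.56 for Lpar1-/- fibroblasts. Most of their other probes read further below 0. Of 8 Gapdh probes, 4 were at least 2-fold lower with the label in coculture (range -1.30 to -0.03) and 5 on Lpar1-/- fibroblasts (range -1.58 to -0.29). Along the Gapdh transcript, the brightest probe lies at position 1365, and the probe at position 346 read -1.30 and -1.58 in these comparisons. Ldha had differences of -0.15 at position 1755, -0.94 at 970 and -0.90 at 351 with the label, and of -0.56, -1.26 and -1.35 on Lpar1-/- fibroblasts. For both genes the probe nearest the 5′ end read further below 0 than the one nearest the 3′ end, the same direction as the medians over transcripts above. Gapdh also has near-identical pseudogene copies that a probe can pick up, and the files place 2 of its probes on chromosome 7, so its values are uncertain. The 14 members with several probes well above background differed between probes by over 0.5 in 3 genes, Gapdh, Ldha and Hk1, in each of these comparisons and in 0 genes between the arrays without fibroblasts.

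**Figure D3:**
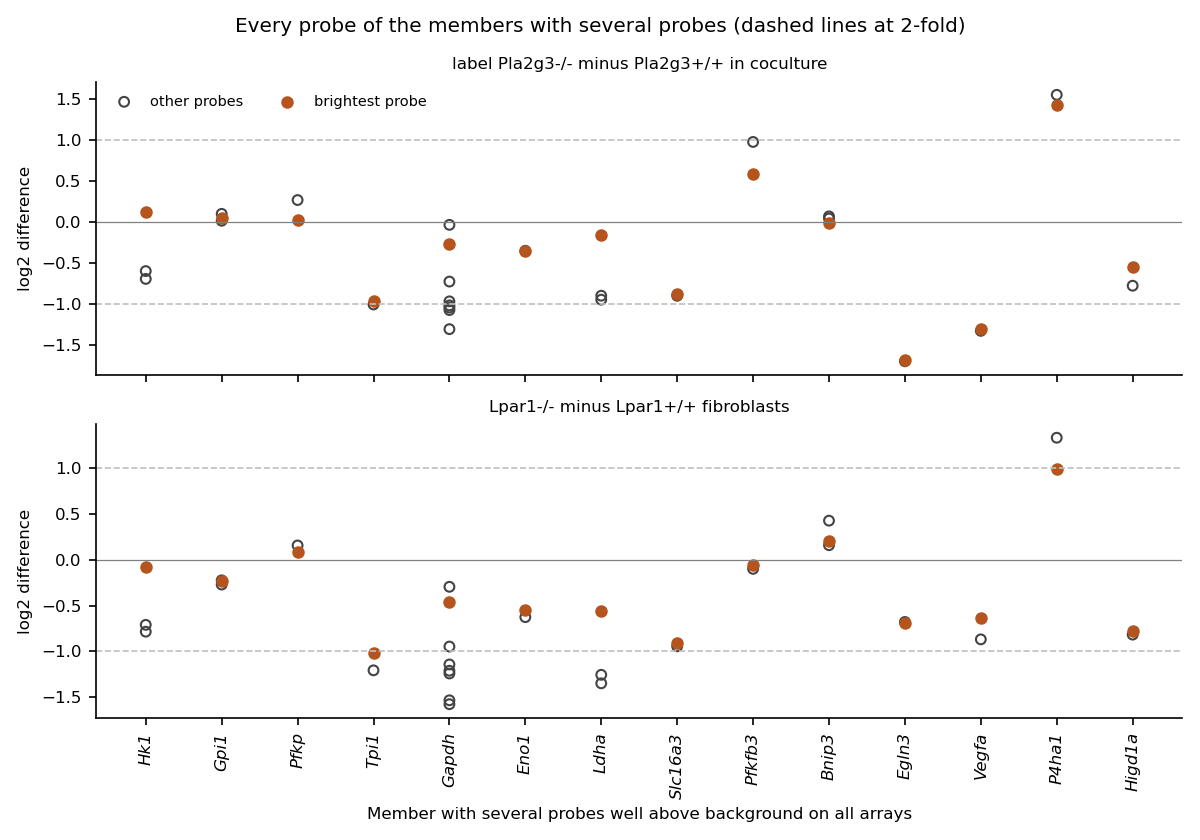
Each column is 1 of the 14 members with several probes well above background on all arrays, with the filled point for the brightest probe and open points for the others; the upper panel gives the log2 difference for the label in coculture and the lower panel for Lpar1-/- fibroblasts. Probes of Egln3, Vegfa, Eno1 and Slc16a3 lie close together, while the Gapdh probes span -1.30 to -0.03 in the upper panel and -1.58 to -0.29 in the lower.

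Regulators of flux decide how far glucose carbon goes. Pdk1, a kinase that blocks pyruvate dehydrogenase and so keeps pyruvate out of mitochondria (probe on mm9 chromosome 2, 71739688 to 71739747), read -0.45 and -0.87 without fibroblasts, -0.74 and -2.83 in the cocultures of Pla2g3+/+ and labelled cells, and -0.78 and -2.42 on Lpar1+/+ and Lpar1-/- fibroblasts. The altered cocultures were far below all other arrays. Pdk1 was 4.24-fold lower with the label in coculture and 3.11-fold lower on Lpar1-/- fibroblasts. Pfkfb3, which makes the activator of phosphofructokinase, read 1.63 and 1.40 without fibroblasts, 1.89 and 2.48 in the cocultures, and 2.07 and 2.02 on Lpar1+/+ and Lpar1-/- fibroblasts. It was highest in the labelled coculture, 2.12-fold above the same label alone, and differed by 0.59 from the Pla2g3+/+ coculture. Pfkfb4, its relative, stayed within 2-fold throughout.

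Feedback genes return the system toward rest. Egln3, an oxygen-sensing prolyl hydroxylase that HIF itself induces, read -3.32 and -4.28 without fibroblasts, -3.54 and -5.22 in the cocultures of Pla2g3+/+ and labelled cells, and -3.29 and -3.98 on Lpar1+/+ and Lpar1-/- fibroblasts. By its brightest probe it was the one member already lower with the label without fibroblasts by nearly 2-fold (-0.97), and its dimmer probe gave -0.67. In coculture Egln3 was 3.20-fold lower (a difference of -0.72 with normexp background correction). On Lpar1-/- fibroblasts the difference was -0.69. Egln1, the main prolyl hydroxylase, and Kdm3a, a histone demethylase induced by HIF, stayed within 2-fold in all comparisons. Mxi1, an antagonist of Myc, was dim. It read -7.31 and -7.34 without fibroblasts, -9.20 and -5.83 in the cocultures, and -9.00 and -5.15 on Lpar1+/+ and Lpar1-/- fibroblasts, where -9.20 and -9.00 were not well above background. Against the floor, the lowest level well above background on the array, Mxi1 was at least 4.70-fold higher with the label in coculture and at least 9.78-fold higher on Lpar1-/- fibroblasts. With another background correction (normexp) these differences were 0.61 and 0.71, so neither remained past 2-fold.

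Secreted signals and pH control form a further group. Vegfa, the vascular growth factor that mast cells also release, read 2.22 and 2.25 without fibroblasts, 1.44 and 0.14 in the cocultures of Pla2g3+/+ and labelled cells, and 1.64 and 1.00 on Lpar1+/+ and Lpar1-/- fibroblasts. Every coculture was below the cells alone, and the labelled coculture was lowest. Vegfa was 4.33-fold lower after coculture of labelled cells and 2.47-fold lower with the label in coculture, while on Lpar1-/- fibroblasts the difference was -0.63. Adm, the vasodilator peptide adrenomedullin (probe on mm9 chromosome 7, 117773088 to 117773147), read -7.13 and -7.08 without fibroblasts, -2.74 and -4.75 in the cocultures, and -2.46 and -6.01 on Lpar1+/+ and Lpar1-/- fibroblasts. It was highest in the wild-type cocultures, and near the lowest detectable level (-8.09 and -8.11) without fibroblasts. Adm was 21.0-fold higher after coculture of Pla2g3+/+ cells (spot error 0.29), 4.03-fold lower with the label in coculture and 11.8-fold lower on Lpar1-/- fibroblasts. With normexp these log2 differences were 1.76, -1.14 and -1.88, in place of 4.39, -2.01 and -3.56. Car9, a surface carbonic anhydrase that removes acid, differed by -0.73 and -0.78 in these comparisons, within 2-fold.

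Enzymes that modify collagen and form disulfides differed in opposite directions. P4ha1 and P4ha2 encode alternative catalytic subunits of collagen prolyl 4-hydroxylase. P4ha2 (probe on mm9 chromosome 11, 53945032 to 53945091) read 0.16 and 0.49 without fibroblasts, 1.60 and 0.37 in the cocultures of Pla2g3+/+ and labelled cells, and 1.62 and 0.16 on Lpar1+/+ and Lpar1-/- fibroblasts. P4ha1 read 0.02 and 0.06, -0.76 and 0.68, and -0.67 and 0.32 in the same order. Thus the wild-type cocultures were the highest arrays for P4ha2 and the lowest for P4ha1. P4ha2 was 2.35-fold lower with the label in coculture and 2.75-fold lower on Lpar1-/- fibroblasts. P4ha1 was 2.71-fold and 1.99-fold higher, and its dimmer probe gave 1.34 for Lpar1-/- fibroblasts on the log2 scale, past 2-fold. Fibroblasts make collagen, and the medians of their markers were -1.18 and -0.25 in these comparisons. Ero1l, an oxidase of the endoplasmic reticulum that drives disulfide formation, differed by -0.75 and -0.81.

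Mitochondrial and stress genes complete the list. Ndrg1, a stress gene with a strong response to low oxygen (probe on mm9 chromosome 15, 66761057 to 66761116), read 3.26 and 3.16 without fibroblasts, 6.03 and 4.68 in the cocultures of Pla2g3+/+ and labelled cells, and 6.08 and 4.73 on Lpar1+/+ and Lpar1-/- fibroblasts. All cocultures were above the cells alone, with the altered ones between. Ndrg1 was 6.85-fold higher after coculture of Pla2g3+/+ cells, 2.56-fold lower with the label in coculture and 2.55-fold lower on Lpar1-/- fibroblasts. Ankrd37, an ankyrin repeat gene induced by HIF (probe on mm9 chromosome 8, 47082404 to 47082463), read 0.67 and 0.72 without fibroblasts, -0.10 and 1.32 in the cocultures, and -0.14 and 1.52 on Lpar1+/+ and Lpar1-/- fibroblasts. It went the other way, with the altered cocultures highest and the wild-type cocultures lowest. Ankrd37 was 2.68-fold higher with the label in coculture and 3.16-fold higher on Lpar1-/- fibroblasts. Bnip3, a receptor for mitophagy, read 3.83 and 3.88 without fibroblasts, 2.79 and 2.78 in the cocultures, and 2.75 and 2.96 on Lpar1+/+ and Lpar1-/- fibroblasts. It separated cells with and without fibroblasts and not the cocultures from each other, with a 2.05-fold lower level after coculture of Pla2g3+/+ cells by the brightest probe and a difference of -0.70 by the probe nearest the 3′ end. Higd1a, a mitochondrial survival factor, differed by -0.55 and -0.78 between the cocultures.

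**Figure D4:**
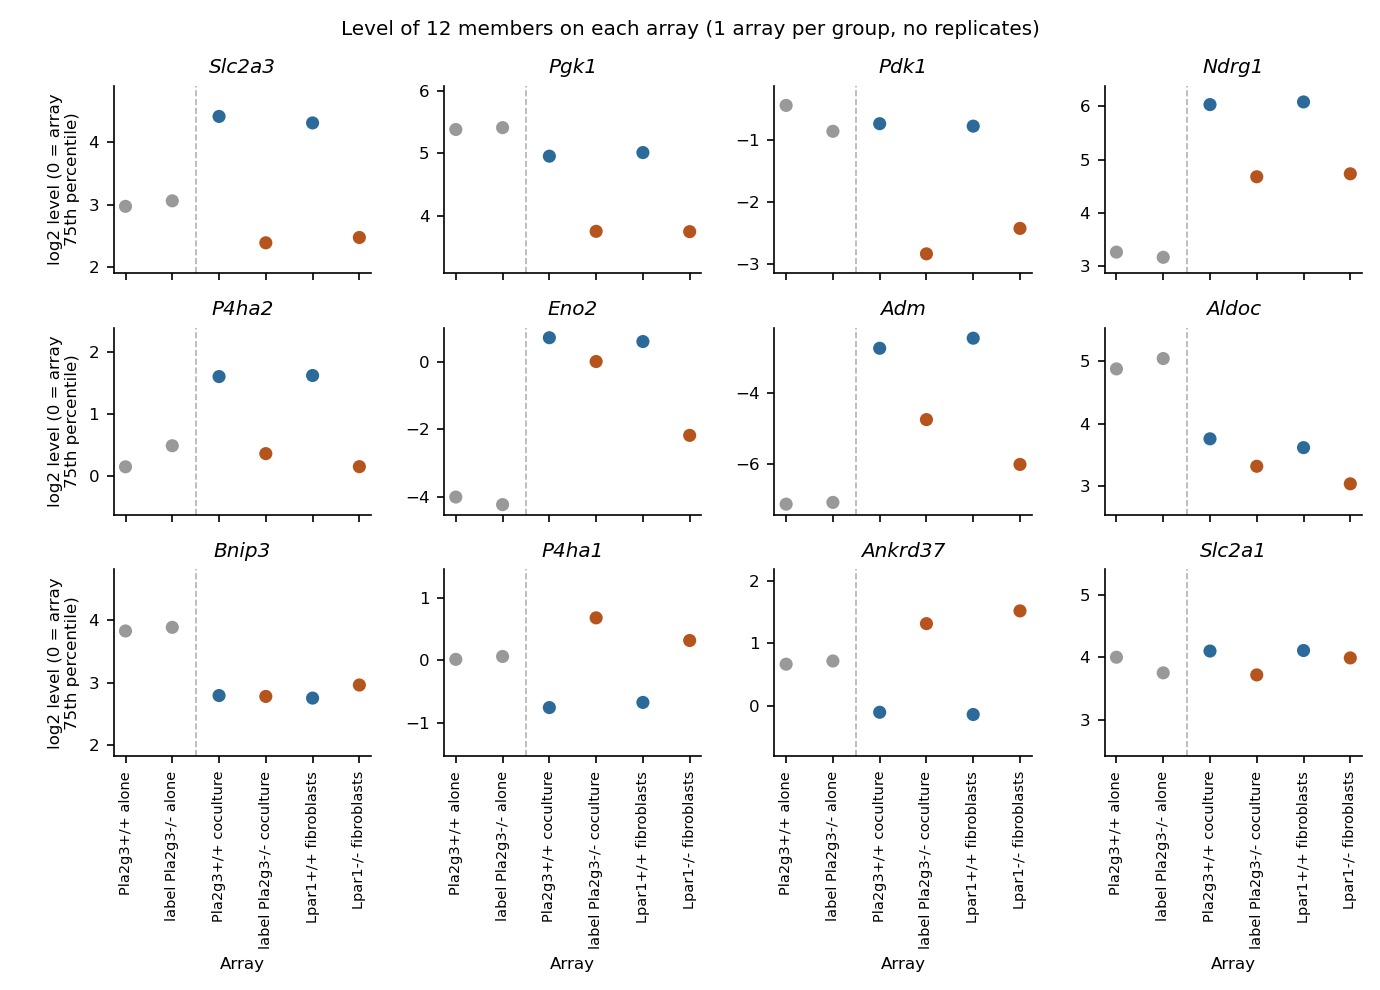
Log2 level of 12 members on each of the 6 arrays (0 is the 75th percentile of the array), with grey for cells without fibroblasts, blue for both wild-type cocultures and orange for the altered cocultures; each panel has its own level axis and there are no replicates or error bars. Slc2a3 stands at 4.41 and 4.31 in the wild-type cocultures and at 2.39 and 2.48 in the altered ones, whereas Bnip3 lies between 2.75 and 2.96 in all cocultures.

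The comparison by label in coculture and that by Lpar1 share no array, though they lie on the same slide. Of the 9 members lower in each, 6 were lower in both (66.7% of either list): Pgk1, Slc2a3, Pdk1, Adm, P4ha2 and Ndrg1. Over all genes, 6.86% were at least 2-fold lower in both, which is 65.7% of those lower with the label and 72.7% of those lower on Lpar1-/- fibroblasts. Hk2, Egln3 and Vegfa were lower past 2-fold with the label and not on Lpar1-/- fibroblasts, and Tpi1, Pgam1 and Eno2 on Lpar1-/- fibroblasts. Of the higher members, Ankrd37 and Mxi1 were common to both, 66.7% of the label's list and 100% of that of Lpar1, where 7.76% of all genes were higher in both (85.1% and 65.6% of the corresponding lists of all genes). The overlap of the members was thus about that of the array. In opposite directions past 2-fold stood 0 members and 0.169% of all genes. Across the 35 members Pearson's r was 0.86 and Spearman's rho 0.89, and 82.9% had the same sign. Across all 22434 genes the values were 0.85, 0.81 and 81.6%, so the likeness was about as large over the whole array as over the members. By list, they were 0.61, 0.81 and 73.3% for the 15 glycolytic enzymes and 0.92, 0.92 and 90% for the 20 other hypoxia genes. The genes are not independent replicates, the arrays share a slide, and both altered cocultures had the lower 5′ signal given above.

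**Figure D5:**
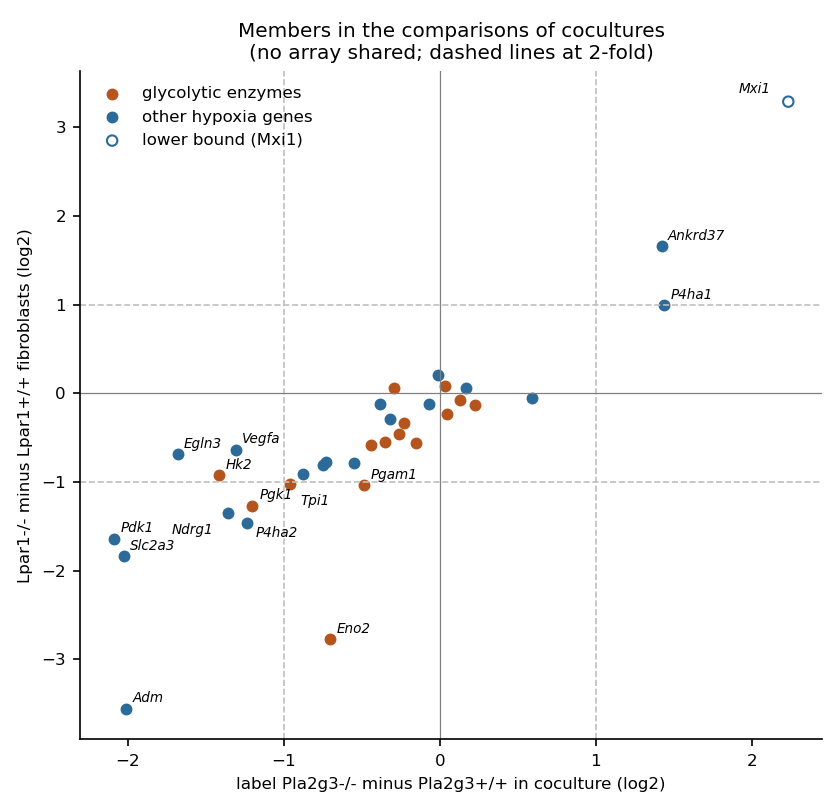
Each point is a member, placed by its log2 difference for the label Pla2g3-/- in coculture (horizontal) and for Lpar1-/- fibroblasts (vertical), with orange for glycolytic enzymes, blue for other hypoxia genes, an open circle for the bound of Mxi1, and dashed lines at 2-fold; members past 2-fold on either axis are named. Pgk1, Slc2a3, Pdk1, Adm, P4ha2 and Ndrg1 lie in the lower left corner, Ankrd37 and Mxi1 in the upper right, and Eno2 at -0.70 and -2.77.

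The glycolytic enzymes and the other hypoxia genes were also set against each other. At least 1 comparison reached 2-fold for 6 of the 15 enzymes and for 12 of the 20 other genes, against 36.7% of the 19748 genes well above background on every array. The remaining 17 members spanned 0.36 to 1.20 log2 units over the 6 arrays. The enzymes' median exceeded that of the other genes by 0.35 with the label in coculture and by 0.12 on Lpar1-/- fibroblasts, and by 0.04 in coculture of Pla2g3+/+ cells. In coculture of labelled cells it was the lower, at -0.36 against -0.24. With the probes nearest the 5′ end, the enzymes' median was -0.49 for the label in coculture and -0.78 on Lpar1-/- fibroblasts, against -0.29 and -0.55 with the brightest probes. The array with Lpar1-/- fibroblasts was the lowest of the 6 for 9 of the 15 enzymes and for 4 of the 20 other genes, while the labelled coculture was the lowest for 2 and 6. Among the 19748 genes these arrays were the lowest for 21.7% and 12.7%. No test of these differences between lists was possible with 1 array per group.

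Genes of the same pathways outside the list were counted in the same way. Of 19 further glycolysis genes, 6 were lower and 0 higher with the label in coculture (median -0.56), and 5 were lower and 2 higher on Lpar1-/- fibroblasts (median -0.42). Over all genes 10.4% were lower and 9.1% higher with the label (median -0.08). On Lpar1-/- fibroblasts the shares were 8.83% and 11.3% (median -0.05). Slc2a8, a glucose transporter, was 4.19-fold and Pgam2, the muscle mutase, 2.81-fold lower with the label. On Lpar1-/- fibroblasts Gpd1 and Gpd1l, which make glycerol phosphate, were 3.23-fold and 3.09-fold lower and Ldhb, the other lactate dehydrogenase subunit, was 5.54-fold higher. Pgam2 was dim, at -5.69 and -7.17 in the cocultures of Pla2g3+/+ and labelled cells, and differed by -0.54 in the wild-type pair. Ldhb was dim too, at -7.22 on Lpar1+/+ and -4.76 on Lpar1-/- fibroblasts. Gpd1 had been 7.28-fold higher after coculture of Pla2g3+/+ cells. It was dim in those cells alone, at -6.60, and differed by 0.62 in the wild-type pair.

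Of 28 further hypoxia targets, 4 were higher and 8 lower with the label (median -0.27) and 5 higher and 6 lower on Lpar1-/- fibroblasts (median -0.26). Of all genes, 9.1% were higher and 10.4% lower with the label, and 11.3% and 8.83% on Lpar1-/- fibroblasts. Rora, a nuclear receptor, was 5.68-fold and 6.69-fold higher in these comparisons, and Ddit4, an inhibitor of mTOR signalling, 4.26-fold and 3.27-fold higher. Tfrc, the transferrin receptor, was 8.60-fold and 4.70-fold lower. Thus known targets of HIF stood on both sides. Of 13 measured genes of the HIF system itself, 2 with the label and 3 on Lpar1-/- fibroblasts passed 2-fold, shares near those of all genes (19.5% and 20.1%). The 3 include Hif3a (1.09), whose difference in the wild-type pair was already -0.96. Siah2, a ubiquitin ligase that targets prolyl hydroxylases, was 4.73-fold lower with the label and 4.41-fold lower on Lpar1-/- fibroblasts, and Cited2, which competes with HIF for its coactivators, was 2.88-fold and 3.14-fold higher. Hif1a, which was within 2-fold and was named after its values were seen, differed by -0.72 and -0.48.

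Oxidative pathways were counted last. Of 13 genes for the entry of pyruvate into mitochondria, 1 was higher and 1 lower with the label, and 1 was higher on Lpar1-/- fibroblasts, where 19.5% and 20.1% of all genes passed 2-fold. Pdk2, a relative of Pdk1, was the higher one in both, 2.59-fold and 3.50-fold, against the 4.24-fold and 3.11-fold lower Pdk1. Of the 18 genes of the citric acid cycle 1 was lower in each comparison, yet 16 and 17 were below 0 (medians -0.33 and -0.36, against -0.08 and -0.05 for all genes). Of the 7 pentose phosphate genes, 0 passed 2-fold in these or in the coculture comparisons.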

How the data were processed

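Per the file headers, the authors extracted the intensity of each spot with Agilent Feature Extraction 12.1.1.1 (also named in the submitters' processing notes), with spatial detrending, background subtraction and surrogate values for dim spots, so dim spots carry some of that surrogate. In the deposited value table the signal is linear and equal to that processed intensity divided by 1 constant per array (column medians 0.0338 to 0.0483), with no centring found. Here log2 of the processed intensity was taken relative to each array's 75th percentile over 43020 noncontrol spots (1230 to 1520 in intensity), with 0 spots saturated and a share well above background of 70.7% to 80.4%. Between 84 and 115 outlier spots an array were left out, and repeat spots of a probe were averaged (39416 of 39429 probes kept). Of the members, 20 had 1 probe and 15 had several. Accessions of 33 members led to the same symbol in the RefSeq table, and those of Hk1 and Mxi1 had none there.

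A comparison of a gene needed 1 array or both well above background. Where one was not, the difference is a bound against the lowest level well above background on that array or the dim probe's own value, whichever was higher. Probe coordinates and transcript positions are those of the files (mm9), and exon or untranslated region is not stated. The number of arrays limits the precision, and intervals over cultures cannot be given. Every member at 2-fold or more in any comparison, and Gapdh, Ldha, Pgk1 and Slc2a1, is given on all arrays, and of each pathway list up to 2 genes per direction and comparison were named. Members, lists and comparisons were chosen with earlier results of these data known. Alternatives were normexp background correction (offset 50), quantile normalization, other filters, the mean of probes, outlier spots kept, the deposited signal table, the other wild-type coculture array and another split of the list. After seeing the data, the other array without fibroblasts and the probes nearest either transcript end were added. Software was R 4.3.3, limma 3.58.1, Python 3.11.15, numpy 2.4.6 and pandas 2.3.3, and the comparison code was tested on simulated data.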

Additional observations from a re-analysis of the deposited data

Results flagged for a closer look

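Coculture differed in direction between the mast cell labels for 4 members. Each sign comes from 1 array against 1 array, and the difference between labels was not tested.

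Slc2a3 was 1.44 higher after coculture of Pla2g3+/+ cells and -0.67 after coculture of cells labelled Pla2g3-/- on the log2 scale, a difference of -2.11. P4ha1 went the other way, at -0.77 and 0.62, a difference of 1.39. By its dimmer probe the values were -1.39 and 0.22, and 0.22 falls short of the rule given below. Ankrd37 went the same way as P4ha1, at -0.77 and 0.60, a difference of 1.37. For Mxi1 the values were -0.75, a bound, and 1.51, a difference of 2.26 with the dim array at its floor. These members were flagged by a rule requiring both values to exceed 0.28, the largest member difference of the wild-type pair. Passing it is therefore no added evidence. That pair lay within the same slide and did not measure Mxi1, whereas each coculture difference crosses slides.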

How the results depend on the processing

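No paired analysis was possible because each group had 1 array. Of 54 member differences past 2-fold, recomputed 532 times under the alternatives, 517 stayed past 2-fold in the same direction, 15 (from 11 differences of Bnip3, Tpi1, Adm, Mxi1, Egln3 and Pgam1) fell short of it with the same sign and 0 reversed. Many recomputations could change little or nothing. The deposited table is the same signal over a constant per array, and the probe alternatives leave the 20 members with 1 probe as they were. Normexp gave 6 of the 15 and quantile normalization 4. Values here are log2 medians unless counts. With the probe nearest the 5′ end, the glycolytic median was -0.16 for coculture of Pla2g3+/+ cells, -0.70 for coculture of labelled cells, -0.49 for the label in coculture and -0.78 for Lpar1-/- fibroblasts, and that of all members was -0.60 for coculture of labelled cells, -0.69 for the label, -0.78 for Lpar1-/- fibroblasts and -0.60 for the difference of coculture effects. With the probe nearest the 3′ end, 1 member in place of 2 was lower after coculture of Pla2g3+/+ cells. With the mean of probes the glycolytic median was -0.60 for coculture of labelled cells and -0.44 for the label, and that of all members -0.68 for Lpar1-/- fibroblasts. With normexp 3 members were higher after coculture of labelled cells and 1 on Lpar1-/- fibroblasts, and the median of the other hypoxia genes was -0.34 for the difference of coculture effects. Requiring both arrays above background also left 1 member higher on Lpar1-/- fibroblasts. Quantile normalization gave -0.37 for the glycolytic enzymes and -0.44 for all members on Lpar1-/- fibroblasts, and the other wild-type array gave -0.44 there for the other hypoxia genes. For coculture of Pla2g3+/+ cells the other array without fibroblasts gave -0.29 for the glycolytic enzymes and 0.058 for the other hypoxia genes, which were at -0.26 with transporters and flux regulators moved to the enzymes. Except for the probe alternatives, whose construction replaces the probe, the cause was not tested. The median of all genes moved by over 0.1 with normexp, from 0.13 to -0.01 for coculture of Pla2g3+/+ cells, from -0.08 to 0.09 for the label in coculture and from -0.05 to 0.09 for the difference of coculture effects. With quantile normalization it moved from 0.13 to 0 and from 0.12 to 0.02 for coculture of Pla2g3+/+ and of labelled cells, and the share of higher genes among those past 2-fold from 63.4% to 48.9% and from 61.0% to 50.3%. Dim probes (Mxi1 and Adm without fibroblasts) are limited by their signal over background.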

Other observations

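Coculture itself went with large differences in a few relatives of the members. After coculture of Pla2g3+/+ cells, Car12, a membrane carbonic anhydrase related to Car9, was 35.9-fold lower, and Stc2, a secreted stress glycoprotein, 9.97-fold lower. Cells labelled Pla2g3-/- had values of 22.3-fold and 34.7-fold lower for the same genes. Stc2 differed by 0.62 in the wild-type pair. Lox, which crosslinks collagen, was at least 15.8-fold higher with Pla2g3+/+ and at least 8.49-fold higher with labelled cells. Lox is also among the fibroblast markers. Of 28 further hypoxia targets, 3 were higher and 4 lower after coculture of Pla2g3+/+ cells, and 4 were higher and 5 lower with labelled cells. The shares of all genes were 13% higher and 7.52% lower with Pla2g3+/+ cells, and 11.4% and 7.3% with labelled cells. Pdk4, which restrains pyruvate dehydrogenase, was higher by at least 6.02-fold with Pla2g3+/+ cells and by at least 7.04-fold with labelled cells, and Pdk3 was 2.48-fold lower with Pla2g3+/+ cells. Pcx, which feeds pyruvate into the citric acid cycle, was 2.33-fold and 3.45-fold lower. Hif3a, a further HIF alpha subunit, was 4.11-fold and 5.08-fold higher. Its difference in the wild-type pair was -0.96, so the size of its rise depends on which wild-type coculture is used. Each value compares 1 array with 1 array across slides.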
